A study of Mus musculus with 12 samples.

Results

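The comparison described here is that of a high-fat diet with a diet named CD in mouse liver, averaged over animals without and with dextran sulfate sodium (DSS). All 12 of the 12 libraries of the study enter it: 6 high-fat libraries, which are the 3 of the group HFD and the 3 of the group HFD_DSS, against 6 CD libraries, which are the 3 of CD and the 3 of CD_DSS. The DSS state was kept as a second factor, so that each high-fat group was set against the CD group of its own DSS state and the 2 differences were averaged. Of 54532 gene IDs in the deposited table, the 10806 with at least 1 FPKM in 3 or more libraries were tested. FPKM are fragments per kilobase of exon and per 1 M fragments. All mice were wild type (WT) and of the inbred strain C57BL/6J. The CD and HFD groups had the diet as their only named treatment, and the CD_DSS and HFD_DSS groups had the same diets with 2% DSS, a sulfated polysaccharide that damages the colon lining and serves as a model of colitis. The sources used here do not give what CD stands for, what the diets contained, how long they lasted, or how DSS was given.

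The liver takes up fat, sugars and foreign compounds from the gut and adjusts the expression of its enzymes to what arrives. Hydrophobic compounds, including drugs, steroids and bile acids, are oxidised by cytochrome P450 enzymes and then coupled to glucuronic acid, glutathione, sulfate or methyl groups by transferases, after which they can be excreted. Hepatocytes also secrete major urinary proteins (Mup), small carriers of volatile pheromones that pass into the urine of mice.

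Depth was 23.4 to 29.4 M fragments per library. The Pearson correlation of log2(FPKM + 1) across genes was 0.972 to 0.989 between libraries of a group and 0.949 to 0.988 between libraries of different groups. In all, 3 libraries stood apart from their groups: on principal component 1, which held 43.3% of the variance, HFD 1 scored -2.90, against -21.7 and -19.1 in the other HFD libraries, CD_DSS 1 scored -4.75, against 21.7 and 21.8, and HFD_DSS 2 scored 7.64, against 30.9 and 25.8. The acute phase gene Saa1 stood at 579 FPKM in HFD 1 but at 19.9 and 22.4 in HFD 2 and 3, and at 9.14 in CD_DSS 1 but at 595 and 483 in CD_DSS 2 and 3. Counts are therefore also given without these 3 libraries (HFD 1, CD_DSS 1 and HFD_DSS 2). The tissue label matched the hepatocyte markers Alb, Ttr, Apob and Hnf4a, whose summed level was 33451 to 42746 FPKM on the CD diet and 18759 to 37584 on the high-fat diet. The summed markers of adipocytes and of pancreatic acinar cells were at most 0.147 and 0.482 FPKM. Those of macrophages (133 to 277 FPKM on the CD diet, 146 to 246 on the high-fat diet), stellate cells (30.7 to 43.9 and 25.6 to 46.3), neutrophils (1.58 to 21.3 and 1.62 to 51.6) and endothelial cells (52.2 to 71.5 and 43.8 to 55.7) overlapped between the diets. Xist was at most 0.0113 FPKM and the Y-linked gene Ddx3y 8.62 to 14.7 FPKM in the 12 libraries. In bulk tissue, fewer cells of a type and less RNA per cell cannot be told apart. No label states whether each library is from a mouse of its own, so p-values measure only the spread between these libraries, which may be technical.

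On the high-fat diet 10 genes rose and 27 fell, 37 in all. Those that fell included 8 cytochromes P450 (6 Cyp2c genes, Cyp2a5 and Cyp3a11) and the conjugating enzymes Ugt1a9 and Gsta2, and 3 of the 10 that rose were Mup genes. The calls are from limma (p adjusted by Benjamini and Hochberg, under 0.05), and are 0.342% of the genes tested (0.0925% higher and 0.250% lower). At an unadjusted p under 0.05 there were 1364 genes. The median log2 fold change over all genes tested was 0.003, with 51.0% of genes positive. The genes that rose had log2 fold changes of 0.39 to 4.46 and those that fell of -0.36 to -2.10. Without the 3 libraries that stood apart, 12 genes were called higher and 42 lower, all 37 genes had the same sign and 21 of them were called again. The rest of the 37 had limma adjusted p of 0.0507 to 0.105 in that fit. They were Mup13, Ces1b, Rnd2, Cd207, Vegfb, Sox18, Paics, Maoa, Vat1, Cyp2d40, Cyp2c38, Aldh1b1, Afmid, Tpmt, Abhd10 and Gm48633. Leaving out each of the 12 libraries in turn gave 17 to 61 calls, and 16 of the 37 genes were called in each of these 12 fits. The count fell to 21 without CD 1, 17 without CD 2, 21 without HFD 1, 20 without HFD 3 and 18 without HFD_DSS 3, and rose to 61 without HFD_DSS 2. Of the other 21 genes, 20 lost their call without CD 2, 20 without HFD_DSS 3, 18 without HFD 1, 18 without HFD 3, 17 without CD 1, 17 without HFD_DSS 1 and 14 without CD 3, and each of the remaining 5 libraries decided 4 to 8.

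The 2 DSS states share no library, but the genes were called on the average of both diet effects. That favours effects of one sign and diets that lie apart in these same libraries. The counts of signs and of separation are therefore descriptions and not a test. In 36 of the 37 genes the effect had the same sign in both states, against 60.2% of all genes tested, and the exception was BC049987. In 34 of the 37 (8 higher and 26 lower) the 3 high-fat libraries lay entirely above or entirely below the 3 CD libraries in each state. This held for 287 genes, or 2.66%, of those tested. In 18 of the 37 all 6 high-fat libraries lay beyond all 6 CD libraries, which held for 94 genes, or 0.870%, of those tested. Fewer genes passed for the diet effect of a single DSS state, taken from the same fit to all 12 libraries. These were 1 without DSS (0.00925%), which was Ugt1a9, and 11 with DSS (0.102%), of which 9 were also called in the average. The other two, Ak4 and Gm45344, had log2 fold changes of -0.90 and 0.93 with DSS and of -0.04 and -0.07 without it. They are named here because the count is small. The difference between the 2 diet effects was called for 1 gene (0.00925%), BC049987. At an unadjusted limma p under 0.05 there were 533 of the 10806 genes tested, about the share that this threshold passes where no gene differs. Of the 37, 12 were among them. The 37 were picked for low p in the same fit, with the same estimates of spread, so that count is not a test either. In 23 of the 37 genes the change was larger with DSS. That was not counted over all genes, but among all genes tested 1171 had an unadjusted limma p under 0.05 with DSS and 726 without it. The 23 are therefore not shown to be particular to the called genes. Across all genes the 2 diet effects correlated with Pearson's r = 0.386, a description over genes, which are not independent replicates.

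**Figure D1:**
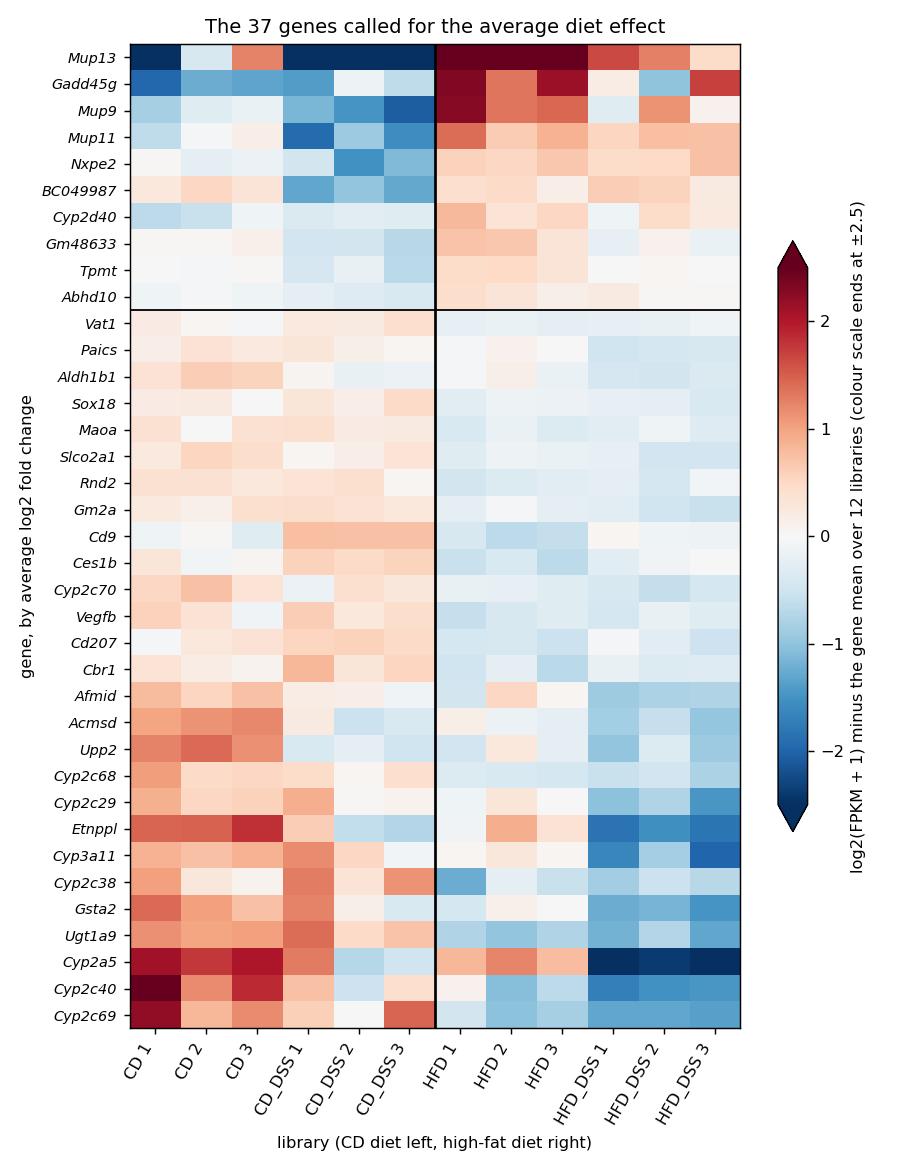
Each row is 1 of the 37 called genes and each column 1 of the 12 libraries, 6 on the CD diet at the left and 6 on the high-fat diet at the right. The colour gives log2(FPKM + 1) minus the gene's mean over the 12 libraries, so the 10 genes above the line are redder at the right and the 27 below it are bluer there.

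**Figure D2:**
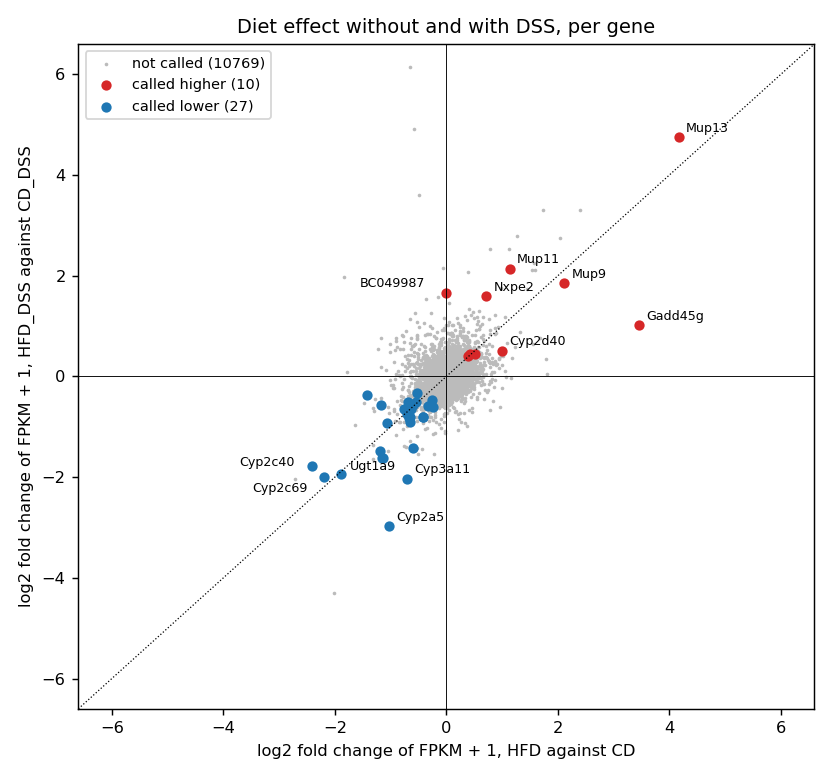
Each point is 1 of the 10806 genes, with the log2 fold change of FPKM + 1 of HFD against CD on the x axis and of HFD_DSS against CD_DSS on the y axis. The dotted line marks equal change: Ugt1a9 lies near it (-1.89 and -1.93), while Gadd45g (3.45 and 1.02), Cyp2a5 (-1.03 and -2.97) and BC049987 (-0.01 and 1.66) lie away from it.

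The Cyp2c subfamily held 6 of the 27 genes that fell. These were Cyp2c69, Cyp2c40, Cyp2c38, Cyp2c29, Cyp2c68 and Cyp2c70, all on chromosome 19 of mm10 between 39269405 (the start of Cyp2c29) and 40187333 (the end of Cyp2c70). All 12 tested members had negative log2 fold changes, with a median of -0.93. The 250 bases before the start of 4 diet-responsive genes are shown to let the neighbours be compared, as far as they lie outside the gene in both annotations used. Sequences are from RefSeq (GRCm38.p6), 5′ to 3′ on the strand of the gene. Capitals mark matches, on either strand, to the HNF4 motif CAAAGTCCA, the HNF1 core GTTAAT (reverse complement ATTAAC) and the nuclear receptor core AGGTCA, which do not overlap each other in these stretches.
Cyp2c40, chr19:39812815-39813064, minus strand: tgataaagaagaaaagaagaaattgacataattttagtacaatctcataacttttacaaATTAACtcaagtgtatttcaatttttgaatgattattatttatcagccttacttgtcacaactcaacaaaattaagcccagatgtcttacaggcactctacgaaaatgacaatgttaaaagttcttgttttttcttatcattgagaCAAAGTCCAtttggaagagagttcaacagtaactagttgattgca
Cyp2c69, chr19:39886800-39887019, minus strand: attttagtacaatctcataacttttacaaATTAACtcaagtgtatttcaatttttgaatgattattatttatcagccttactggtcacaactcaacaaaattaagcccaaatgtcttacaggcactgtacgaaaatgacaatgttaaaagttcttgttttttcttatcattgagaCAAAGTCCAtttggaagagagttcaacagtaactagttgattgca
Cyp2c70, chr19:40187334-40187536, minus strand: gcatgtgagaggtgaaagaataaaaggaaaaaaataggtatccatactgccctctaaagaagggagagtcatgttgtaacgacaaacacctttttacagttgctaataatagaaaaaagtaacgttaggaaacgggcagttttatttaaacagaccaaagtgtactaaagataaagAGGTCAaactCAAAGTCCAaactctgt
Ugt1a9, chr1:88070529-88070778, plus strand: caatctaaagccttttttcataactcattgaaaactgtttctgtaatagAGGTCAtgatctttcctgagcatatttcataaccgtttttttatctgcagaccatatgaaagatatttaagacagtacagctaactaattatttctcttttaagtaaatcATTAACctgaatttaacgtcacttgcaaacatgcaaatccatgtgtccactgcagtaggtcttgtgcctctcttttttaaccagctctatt
The stretches of Cyp2c40 and Cyp2c69 were identical at 217 of 220 aligned bases (98.6%), and both hold the same HNF4 and HNF1 matches. Cyp2c70 was identical to Cyp2c40 at 57.0% of 128 aligned bases, near the 59.0% between Cyp2c40 and the unrelated Ugt1a9. Its HNF4 match lies 55 bases before the RefSeq start with an AGGTCA just before it. In the 250 bases before the start, CAAAGTCCA was found in 5 of 25 genes called lower (Cyp2c40, Cyp2c68, Cyp2c69, Cyp2c70 and Cyp3a11) and in 0 of 8 called higher, and in 0.451% of 27025 genes. That motif was chosen after these sequences had been seen. GTTAAT was found in 7 of 25 genes called lower and 7.49% of all genes, AGGTCA in 7 of 25 and 15.8%, TATAAA in 8 of 25 and 14.3%, and the STAT palindrome TTCNNNGAA in 3 of 25 and 8.13%. Near-copies such as the Cyp2c genes are not independent in these counts, and a match is a description of letters, not of a site in use.

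Cyp2c40, which oxidises arachidonic acid, and its neighbour Cyp2c69, both known as female-biased genes of mouse liver, changed most among them. Cyp2c69 (chromosome 19, 39842814 to 39886799) stood at 19.7, 6.82 and 9.07 FPKM in CD, at 2.20, 1.17 and 1.48 in HFD, at 5.72, 3.44 and 11.1 in CD_DSS and at 0.808, 0.793 and 0.733 in HFD_DSS. The lowest CD library, at 3.44, was above the highest high-fat library, at 2.20. The average log2 fold change was -2.10 ± 0.26 (SE, limma adjusted p = 0.00746), a 4.27-fold decrease of FPKM + 1. Cyp2c40 (39767071 to 39812814) stood at 38.9, 14.1 and 23.1 FPKM in CD, 6.11, 2.17 and 3.23 in HFD, 10.1, 3.65 and 7.81 in CD_DSS and 1.02, 1.32 and 1.42 in HFD_DSS. The diets did not overlap within a DSS state, but HFD 1 lay above CD_DSS 2. Its log2 fold change was -2.09 ± 0.28 (adjusted p = 0.00874). Of the 50-base words in the exons of Cyp2c40, Cyp2c69 and Cyp2c68, 60.3%, 54.3% and 43.3% also occur in other genes, so the deposited values could split shared fragments between these copies. Cyp2c68 stood at 125 to 187 FPKM in CD and 65.7 to 70.6 in HFD, and at 92.0 to 123 in CD_DSS and 51.5 to 63.5 in HFD_DSS, with no overlap of the diets. It fell by 0.99 ± 0.12 on the log2 scale (adjusted p = 0.00723).

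Cyp2c70, which makes the muricholic acids of rodent bile and shares no 50-base word with another gene, stood at 447, 520 and 397 FPKM in CD and 273, 270 and 254 in HFD. With DSS it stood at 283, 415 and 379 in CD_DSS and 238, 208 and 231 in HFD_DSS. All 6 high-fat libraries were below all 6 CD libraries, and the log2 fold change was -0.71 ± 0.11 (adjusted p = 0.0177), a 1.63-fold decrease. The call was lost when CD 1, CD 2, HFD 3 or HFD_DSS 3 was left out, with adjusted p up to 0.0635. Cyp2c29 and Cyp2c38, both known to epoxidise arachidonic acid, had log2 fold changes of -1.01 and -1.38 (adjusted p = 0.0376 and 0.0244). They were called in 5 and 4 of the 12 fits that left out a library, with adjusted p up to 0.103 and 0.0741, and Cyp2c38 had an adjusted p of 0.0751 without the 3 libraries that stood apart. Cyp2c29 was the more abundant, at 333 ± 48.3 FPKM (SD, n = 3) in CD and 219 ± 34.8 in HFD, and 275 ± 102 in CD_DSS and 100 ± 24.1 in HFD_DSS. The 6 other members were not called: Cyp2c55 (-1.03), Cyp2c67 (-0.86, adjusted p = 0.0605), Cyp2c37 (-0.69), Cyp2c23 (-0.49), Cyp2c54 (-0.42) and Cyp2c50 (-0.30). The summed level of the 12 members was 1663 to 2203 FPKM in CD, 1111 to 1426 in HFD, 1350 to 1607 in CD_DSS and 777 to 957 in HFD_DSS. Without the 3 libraries that stood apart, 7 of the 12 were called lower and the median was -0.91.

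**Figure D3:**
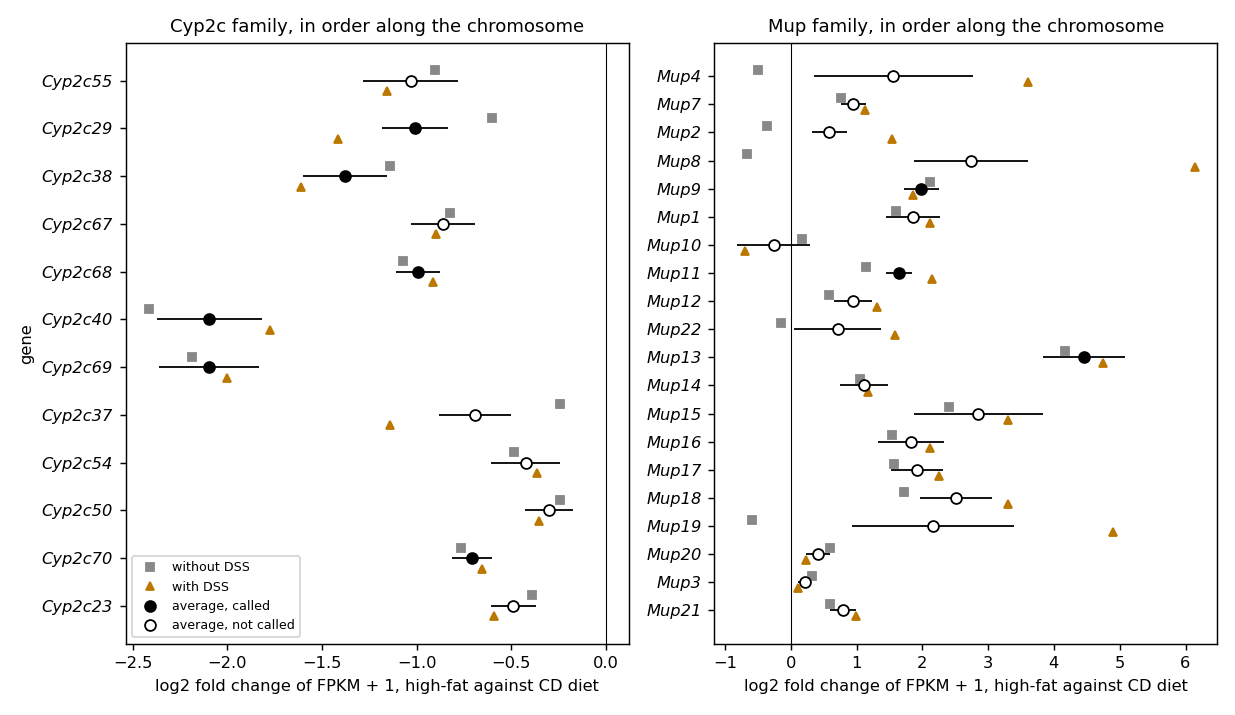
Points give the average log2 fold change of FPKM + 1, with SE bars, for the 12 tested Cyp2c genes (left) and the 20 tested Mup genes (right) in their order along the chromosome, filled where called. Squares and triangles give the diet effect without and with DSS, and all Cyp2c averages lie below 0 while 19 of 20 Mup averages lie above it.

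Among other cytochromes P450, Cyp2a5, an oxidiser of coumarin and nicotine, stood at 98.2, 77.8 and 93.3 FPKM in CD and 40.1, 53.0 and 38.2 in HFD, then at 55.9, 13.1 and 15.4 in CD_DSS and 1.25, 3.38 and 1.78 in HFD_DSS. Both DSS and the high-fat diet went with low values, and the 3 lowest libraries had both. The average log2 fold change was -2.0 ± 0.31 (adjusted p = 0.0201), with -1.03 without DSS and -2.97 with it, and the difference between these had an unadjusted p of 0.0088 and an adjusted p of 0.897. Cyp2a5 shares 37% of its 50-base words with other genes, mainly Cyp2a4. Cyp3a11, the main drug-oxidising P450 of its subfamily in mouse liver, stood at 742, 671 and 737 FPKM in CD and 419, 492 and 415 in HFD, and at 913, 578 and 383 in CD_DSS and 129, 224 and 101 in HFD_DSS. Its level fell by 1.36 ± 0.22 (adjusted p = 0.0244), with -0.70 without DSS and -2.03 with it. The difference between these had an unadjusted limma p of 0.0111 and an adjusted p of 0.958. Cyp2a5 and Cyp3a11 were each called in 5 of the 12 fits that left out a library, with adjusted p up to 0.0705 and 0.0781. Cyp2d40 rose, from 42.1 to 62.0 FPKM in CD and 51.6 to 55.2 in CD_DSS to 85.3 to 119 in HFD and 62.2 to 92.5 in HFD_DSS, with a log2 fold change of 0.75 ± 0.13 (adjusted p = 0.0309). It was called in 4 of those 12 fits, and had 0.61 (adjusted p = 0.0868) without the 3 libraries that stood apart.

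Of 27 tested genes on the list of cytochrome P450 families 1 to 3, which does not hold Cyp2c70, 7 fell and 1 rose, 22 were negative and the median was -0.49. Cyp2e1, Cyp2j5 and Cyp3a13 had log2 fold changes of 0.18, 0.01 and -0.04, so the list did not move as a block. With those 3 libraries left out, 8 of the 27 were called lower and 0 higher, with a median of -0.39. The acute phase transcripts and the summed hepatocyte markers differed between libraries as given above, and their part in these decreases was not tested.

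Ugt1a9, which couples glucuronic acid to drugs and other small molecules, had the lowest p of all genes. It lies on chromosome 1, 88070800 to 88218997. It stood at 27.7, 24.8 and 25.7 FPKM in CD and 6.71, 5.56 and 6.73 in HFD, and at 33.5, 17.2 and 20.3 in CD_DSS and 4.78, 6.82 and 4.34 in HFD_DSS. The lowest CD library was at 17.2 and the highest high-fat library at 6.82. The log2 fold change was -1.91 ± 0.15 (limma adjusted p = 0.000493), with -1.89 without DSS and -1.93 with it. Both single-state effects passed (limma adjusted p = 0.0197 and 0.00782). They come from the 1 fit to all 12 libraries and share its estimate of spread. Because 59.9% of its exon bases are shared on the same strand with other Ugt1a genes, which differ in their first exons only, its level depends on how shared fragments were assigned. The other tested Ugt1a genes had -1.34 (Ugt1a5), -0.56 (Ugt1a1) and -0.22 (Ugt1a6b) and were not called. Of 9 Ugt1a genes 4 were tested. Their summed level was 88.8 to 106 FPKM in CD, 44.5 to 66.4 in HFD, 71.6 to 109 in CD_DSS and 42.8 to 66.3 in HFD_DSS, without overlap of the diets. Ugt1a10 and Ugt1a7c, which share bases with Ugt1a9, are not in this sum, so it too depends on how fragments were assigned. All 7 tested Ugt2b genes were negative, with a median of -0.27, and 0 were called.

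**Figure D4:**
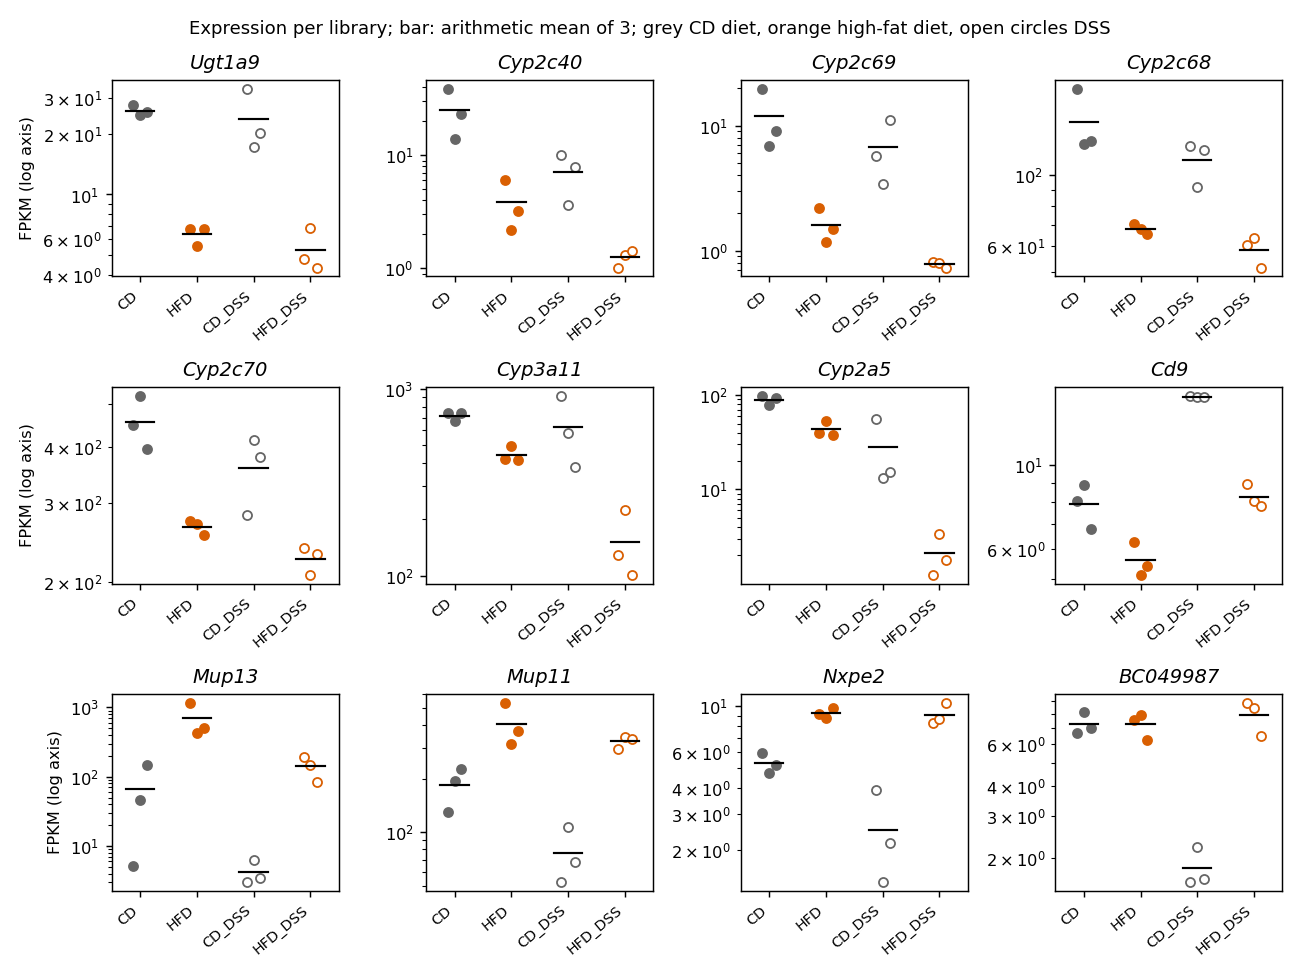
FPKM per library on log axes for 12 genes, grey for the CD diet and orange for the high-fat diet, filled without and open with DSS, with a bar at the mean of 3 libraries. Ugt1a9 shows the same gap between diets without and with DSS, while BC049987 differs between diets only among the open circles.

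Glutathione transferase Gsta2 stood at 15, 11.2 and 8.96 FPKM in CD, 3.41, 5.5 and 5.02 in HFD, 13.2, 5.59 and 3.58 in CD_DSS and 1.53, 1.68 and 1.14 in HFD_DSS. Its level fell by 1.40 ± 0.24 (adjusted p = 0.0369), but was called in only 3 of the 12 fits that left out a library, and 49.8% of its 50-base words occur in other genes. The abundant Gstm1 had -1.06 (adjusted p = 0.0705), and all 4 Gsta and all 8 Gstm genes tested were negative. Thiopurine methyltransferase Tpmt rose, from 8.66 to 9.05 FPKM in CD and 5.22 to 7.64 in CD_DSS to 11.3 to 12.9 in HFD and 8.82 to 9.19 in HFD_DSS, with a log2 fold change of 0.44 ± 0.07 (adjusted p = 0.0376). It too was rarely called when a library was left out, in 2 of 12 fits, and 17.4% of its exon bases overlap Gm18807 on the other strand. Of 36 tested phase II conjugation genes, 2 fell and 1 rose, 26 were negative and the median was -0.30. Leaving out the 3 libraries that stood apart, 6 fell and the median was -0.24.

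Carbonyl reductase Cbr1, which reduces quinones and prostaglandins, stood at 18.4 to 22.3 FPKM in CD and 10.5 to 14.4 in HFD, and at 21.6 to 31.4 in CD_DSS and 13.5 to 15.2 in HFD_DSS. All high-fat libraries were below all CD libraries and the log2 fold change was -0.75 ± 0.10 (adjusted p = 0.00874). With Gsta2 it made 2 of 20 NRF2 antioxidant targets that fell. On that list 16 were negative and 4 positive, with a median of -0.24. In the fit without the 3 libraries that stood apart, 4 of the 20 were called lower and the median was -0.20. The classical targets Nqo1, Txnrd1, Gclm and Hmox1 had -0.39, 0.01, -0.12 and 0.31 and were not called. Carboxylesterase Ces1b stood at 36.5 ± 5.12 FPKM in CD, 23.1 ± 2.48 in HFD, 49.5 ± 2.12 in CD_DSS and 31.3 ± 3.04 in HFD_DSS (SD, n = 3). It fell by 0.64 ± 0.08 (adjusted p = 0.00867), with 0.63 without DSS and 0.65 with it. The other Ces1 genes tested were all negative and not called, from Ces1d (-0.96) to Ces1e (-0.19). Among 14 carboxylesterases the median was -0.29, and Ces4a stood at the other end with 1.59 (limma adjusted p = 0.0654). With HFD 1, CD_DSS 1 and HFD_DSS 2 left out, 4 of the 14 were called lower and the median was -0.35. In that fit 3 of 6 tested Ces1 genes were called lower, but Ces1b was not (-0.63, limma adjusted p = 0.0511).

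The major urinary proteins went the other way: Mup13, Mup9 and Mup11 rose, and 19 of 20 tested members were positive, with a median of 1.60. Mup11 (chromosome 4, 60658466 to 60662411) stood at 130, 195 and 229 FPKM in CD and 534, 314 and 372 in HFD, and at 52.5, 108 and 68.2 in CD_DSS and 296, 343 and 337 in HFD_DSS. All 6 high-fat libraries were above all 6 CD libraries. Its log2 fold change was 1.64 ± 0.20 (adjusted p = 0.00723), with 1.14 without DSS and 2.14 with it. Mup13 (61224307 to 61228286) varied widely between libraries of a group, with 5.22, 46.7 and 146 FPKM in CD, 1153, 431 and 506 in HFD, 3.03, 6.23 and 3.48 in CD_DSS and 195, 149 and 84.8 in HFD_DSS. The highest CD library, CD 3, overlapped the HFD_DSS libraries. The log2 fold change was 4.46 ± 0.62 (adjusted p = 0.0113), and 4.12 (adjusted p = 0.0774) without the 3 libraries that stood apart. Mup9 rose from 4.84 ± 1.36 to 24.9 ± 9.89 FPKM without DSS and from 1.72 ± 0.82 to 9.41 ± 5.56 with it (SD, n = 3; 1.99 ± 0.26, adjusted p = 0.00874).

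The Mup genes are near-copies: 92.8%, 79.1% and 77.8% of the 50-base words of Mup13, Mup9 and Mup11 occur in other genes, so the level of each copy depends on how shared fragments were assigned. The sum over the 20 tested of 22 Mup genes does not depend on how fragments are split among those 20, apart from lengths. It does depend on whether fragments shared with still other genes were counted, and for which gene. The summed FPKM of the 20 tested members were 15559, 26751 and 27578 in CD and 43292, 35609 and 36520 in HFD, and 11214, 13774 and 12779 in CD_DSS and 23170, 21705 and 23707 in HFD_DSS. The high-fat libraries were above the CD libraries in each DSS state, and DSS went with lower sums on both diets. The most abundant member, Mup3, had a log2 fold change of 0.21 (adjusted p = 0.404) and the only negative member was Mup10 (-0.26). Mup4, Mup8 and Mup19 were negative without DSS (-0.49, -0.66 and -0.58) and strongly positive with it (3.61, 6.14 and 4.90) and were not called. Their libraries without DSS were widely spread, such as 1.74, 2.64 and 199 FPKM for Mup8 in CD. Mup19 in HFD stood at 67.3, 714 and 6.65. Mup2 (-0.37 and 1.54) and Mup22 (-0.15 and 1.58) had the same signs and were not called either. With the 3 libraries left out, 2 of the 20 were called and the median was 1.38.

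Mup11 is also on the list of male-biased liver genes, and Cyp2c40 and Cyp2c69 on that of female-biased genes. All 12 tested female-biased genes but Rtn4 (0.02) were negative, with a median of -0.49, and 2 were called. Of 25 male-biased genes 20 were positive, with a median of 0.23, and 1 was called. The male-biased Moxd1 and Hsd3b5 had 2.40 (adjusted p = 0.0813) and 0.88 (adjusted p = 0.177), while Slco1a1 and Cyp2d9 had -0.01 and -0.03. The transcription factor Bcl6, which is itself male-biased and represses female-biased genes, had 0.09.

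On the list for amino acid catabolism and the urea cycle 0 of 38 tested genes were called, with a median of -0.08. Etnppl, which breaks down phosphoethanolamine, stood at 19.9, 20.3 and 25.9 FPKM in CD, 6.16, 13.3 and 8.79 in HFD, 10.7, 3.98 and 3.60 in CD_DSS and 1.13, 1.64 and 1.16 in HFD_DSS. Its level fell by 1.34 ± 0.23 (adjusted p = 0.0376), a change on top of a lower level with DSS on both diets. The mitochondrial aldehyde dehydrogenase Aldh1b1 fell by 0.43 ± 0.08 (adjusted p = 0.0382). Etnppl was called in 5 and Aldh1b1 in 3 of the 12 fits that left out a library, and Aldh1b1 had an adjusted p of 0.101 without the 3 libraries that stood apart. Both are on the list of periportal hepatocyte genes, where 19 of 20 members were negative with a median of -0.22 and 2 were called. The periportal urea cycle enzymes Ass1 and Cps1 had -0.53 and -0.44 and were not called. Albumin, which is also on that list, had -0.46 (Alb, adjusted p = 0.278). Pericentral hepatocyte genes had a median of 0.06 and 0 of 20 called.

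In the tryptophan to kynurenine pathway, Acmsd, which diverts an intermediate away from NAD synthesis, stood at 19.6 ± 1.46 FPKM in CD and 8.15 ± 1.28 in HFD, and at 7.40 ± 2.49 in CD_DSS and 4.54 ± 0.78 in HFD_DSS (SD, n = 3). It fell by 0.87 ± 0.13 (adjusted p = 0.0177). Afmid, which hydrolyses formylkynurenine, stood at 15.8 ± 1.52 and 10.1 ± 3.65 FPKM without DSS and 10.1 ± 1.11 and 4.92 ± 0.31 with it, and fell by 0.78 ± 0.14 (adjusted p = 0.038). Of its exon bases 44.3% are shared with Gm20708, and it was called in 2 of 12 fits that left out a library. Tdo2, the first enzyme of that pathway, had -0.08. Uridine phosphorylase Upp2 stood at 28.7, 32.6 and 26.9 FPKM in CD and 8.02, 14.1 and 9.76 in HFD, but at 8.75, 9.75 and 7.91 in CD_DSS and 5.39, 8.89 and 5.76 in HFD_DSS. The diets overlapped with DSS, where HFD_DSS 2 lay above CD_DSS 1 and 3. The average log2 fold change was -0.90 ± 0.14 (adjusted p = 0.0206), with -1.42 without DSS and -0.38 with it (unadjusted p of the difference 0.00316, adjusted p = 0.699). Paics, of purine synthesis, fell by 0.43 ± 0.07, with -0.24 without DSS and -0.61 with it. Maoa, which oxidises amines, stood at 2.09 ± 0.42 and 1.10 ± 0.17 FPKM without DSS and 2.11 ± 0.23 and 1.19 ± 0.17 with it, and fell by 0.53 ± 0.08 (adjusted p = 0.0217). When a library was left out, Acmsd was called in 8 of 12 fits and Upp2, Paics and Maoa each in 6.

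Genes of membranes, vessels and immune cells were also among those that fell. The tetraspanin Cd9 stood at 8.02, 8.84 and 6.79 FPKM in CD, 6.28, 5.13 and 5.39 in HFD, 15.3, 15.1 and 15.1 in CD_DSS and 8.93, 8.02 and 7.82 in HFD_DSS. DSS went with higher values on both diets and the high-fat diet with lower values in both DSS states. The log2 fold change was -0.62 ± 0.07 (adjusted p = 0.00723). Cd9 was the only member called of 7 tested markers of lipid-associated macrophages, where Spp1, Lpl and Lgals3 had -0.08, -0.05 and 0.17. Cd207, the lectin langerin of Langerhans cells, stood at 2.06 ± 0.40 and 0.924 ± 0.094 FPKM without DSS and 2.84 ± 0.14 and 1.21 ± 0.38 with it (SD, n = 3), and fell by 0.73 ± 0.09 (adjusted p = 0.00746). Sox18, a transcription factor of endothelial cells, stood at 3.63 to 5.41 FPKM in the 6 CD libraries and 2.53 to 3.21 in the 6 high-fat libraries and fell by 0.46 ± 0.07 (adjusted p = 0.019). The growth factor Vegfb fell by 0.72 ± 0.11 (adjusted p = 0.0201) and the prostaglandin transporter Slco2a1 by 0.59 ± 0.08 (adjusted p = 0.00983). Cd9, Cd207 and Slco2a1 were called in all 12 fits that left out a library, Vegfb in 8 and Sox18 in 7. Of 18 tested markers of sinusoidal endothelium 16 were negative, with a median of -0.23, and 0 were called. The summed endothelial markers, given above, reached lower on the high-fat diet, and their part in the change of Sox18 was not tested.

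Gm2a, a lysosomal cofactor of ganglioside breakdown, stood at 27.1 to 33.8 FPKM in the 6 CD libraries and 16.5 to 24.2 in the 6 high-fat libraries. It fell by 0.61 ± 0.07 (adjusted p = 0.00723) and was called in each fit that left out a library. The lysosome list, on which Gm2a is not, had 30 of 34 members negative, a median of -0.09 and 0 called. Rnd2, a small GTPase, and Vat1 overlap at their ends on opposite strands of chromosome 11 and both fell, by 0.60 ± 0.08 and 0.36 ± 0.06, and Vat1 was called in 5 of the 12 fits that left out a library. The sources used here do not say whether fragments were counted by strand, so reads of their shared bases (11.4% of the exon bases of Rnd2 and 8.17% of Vat1) cannot be assigned. The same holds for 10.7% of the exon bases of Cd9, opposite Gm26728.

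Beside the Mup genes, Cyp2d40 and Tpmt, 5 genes rose. Nxpe2 (chromosome 9, 48318006 to 48353454) stood at 5.95, 4.72 and 5.16 FPKM in CD and 9.21, 8.73 and 9.81 in HFD, and at 3.93, 1.39 and 2.17 in CD_DSS and 8.32, 8.67 and 10.4 in HFD_DSS. The high-fat libraries stayed at one level while DSS went with lower values on the CD diet. The log2 fold change was 1.15 ± 0.14 (adjusted p = 0.00746), with 0.71 without DSS and 1.59 with it (unadjusted p of the difference 0.0109, adjusted p = 0.958). Gadd45g, a stress-induced inhibitor of cell growth, stood at 3.58, 6.59 and 6.16 FPKM in CD and 87.9, 44.4 and 79.1 in HFD. With DSS it stood at 5.86, 15.5 and 10.5 in CD_DSS and 19.5, 7.94 and 57.8 in HFD_DSS, and these overlapped. The average log2 fold change was 2.23 ± 0.40 (adjusted p = 0.0469; exact permutation p = 0.02), with 3.45 without DSS and 1.02 with it, and it was called in 3 of the 12 fits that left out a library. Of 18 immediate early and stress genes tested it was the only 1 called, and Fos, Jun and Gadd45b had -0.02, 0.06 and -0.10. The mitochondrial hydrolase Abhd10 rose by 0.39 ± 0.07 (adjusted p = 0.0382), from 0.856 to 1.35 FPKM in the CD libraries to 1.44 to 2.27 in the high-fat libraries, and the noncoding RNA Gm48633 by 0.48 ± 0.09 (adjusted p = 0.0469). They were called in 2 and 1 of those 12 fits.

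BC049987 (chromosome 9, 44670453 to 44672238) was the only gene whose diet effect differed between the DSS states by the test of the difference. It stood at 6.65, 8.13 and 6.94 FPKM in CD and 7.51, 7.92 and 6.21 in HFD, at 1.59, 2.23 and 1.64 in CD_DSS and at 8.85, 8.44 and 6.48 in HFD_DSS. Only the CD_DSS group was low. The log2 fold change was -0.01 ± 0.13 without DSS and 1.66 ± 0.13 with it, a difference of 1.66 ± 0.19 (limma adjusted p = 0.0227). Its average of 0.83 (adjusted p = 0.00723) therefore describes neither state, and its exact permutation p was 0.055. Without the 3 libraries that stood apart the call for the difference was lost. It was also lost when CD 1, CD 2, HFD 2 or HFD 3 alone was left out. The same held for CD_DSS 1, CD_DSS 3, HFD_DSS 1 and HFD_DSS 2.

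Lipid synthesis genes showed some of the largest differences without passing the test. Scd1, which desaturates stearic acid, stood at 1598, 1369 and 1235 FPKM in CD and 108, 547 and 686 in HFD, and at 1307, 294 and 208 in CD_DSS and 8.37, 71.2 and 14.3 in HFD_DSS. The diets did not overlap within a DSS state, and the log2 fold change was -3.16 ± 0.62, with a limma adjusted p of 0.0605. Its exact permutation p of 0.005 is the smallest that test can give. It follows from that lack of overlap and was not adjusted over genes. Fasn, the fatty acid synthase, stood at 52.6 ± 13.9 and 25.7 ± 9.59 FPKM without DSS and 26.1 ± 11.3 and 16.5 ± 5.26 with it (SD, n = 3), with a log2 fold change of -0.82 (adjusted p = 0.176). Among the 21 tested for fatty acid and triglyceride synthesis 18 were negative, with a median of -0.42, and 0 were called. Acly, Acaca, Acacb and Thrsp had -0.60, -0.62, -1.0 and -0.87 (adjusted p = 0.0668 to 0.111). In the fit without HFD 1, CD_DSS 1 and HFD_DSS 2, 4 of the 21 were called lower and the median was -0.38. Their regulator Srebf1 had -0.12, the lipid droplet coat protein Plin2 0.34, the fatty acid transporter Cd36 -0.07, the droplet protein Cidec 0.18 and the nuclear receptor Pparg -0.11. Fatty acid oxidation and ketogenesis had a median of 0.13 with 0 of 28 called.

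Some genes of cholesterol and bile acid synthesis had diet effects of opposite sign without and with DSS, though no difference between them passed the test. Cholesterol synthesis and uptake had a median of -0.50 without DSS and 0.40 with it, so that the average was -0.04, and 0 of 24 genes were called. Hmgcs1 had -0.49 and 0.98, and Sqle -0.83 and 0.54, in that order. Cyp7a1, which catalyses the first step of the classical route to bile acids, stood at 35.3, 15.6 and 46.6 FPKM in CD and 4.92, 6.41 and 13.3 in HFD, but at 2.37, 0.379 and 1.15 in CD_DSS and 14.1, 1.44 and 15.3 in HFD_DSS. The log2 fold change was -1.84 without DSS and 1.97 with it, and the difference of 3.81 ± 0.96 had an unadjusted p of 0.00219 and an adjusted p of 0.699. Cyp8b1, which makes cholic acid, had -0.58 and 0.63, and its diets did not overlap in either state. The difference of 1.21 ± 0.24 had an unadjusted p of 0.000306 and an adjusted p of 0.491. Other genes of bile acid synthesis kept their sign, such as Cyp2c70 (-0.76 without DSS and -0.65 with it) and Akr1d1 (-0.70 and -0.49). Of 12 tested 1 was called, Cyp2c70, and the median was 0.04. The bile acid uptake carrier Slco1a4 had -1.08 (adjusted p = 0.0656).

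Inflammation and autophagy genes were not called. Of 34 acute phase genes 32 were positive, with a median of 0.34, but Saa1 (1.83 ± 1.16) and Lcn2 (1.65 ± 1.04) had SE of over 1 and adjusted p of 0.549 and 0.543. Once the 3 libraries that stood apart were left out, 23 of the 34 were positive and the median was 0.07. Interferon-stimulated genes had a median of 0.22 with 33 of 37 positive, where Ifit1 had 0.59 and Isg15 0.44, and a median of 0.14 with 32 of 37 positive without those libraries. Of 46 genes of autophagy, which the title of the study names, 20 were positive and the median was -0.02. Sqstm1, Map1lc3b, Atg7, Ulk1 and Tfeb had -0.05, -0.06, -0.05, -0.23 and -0.08 (adjusted p = 0.407 to 0.813). For Sqstm1 the levels were 118 to 138 FPKM in CD and 119 to 126 in HFD, and 144 to 153 in CD_DSS and 142 to 161 in HFD_DSS. Of the 51 lists, 40 had no called member, and the medians of the 34 of these with at least 12 tested genes lay between -0.42 and 0.34. The 23 genes looked up whatever the test gave included Pck1 (-0.11), Igfbp1 (-0.13), Fgf21 (0.38), Cyp4a14 (-0.48) and Hamp (0.29). Of the 21 tested 0 were called, and Cidea and Cyp2b10 did not reach 1 FPKM in 3 libraries.

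**Figure D5:**
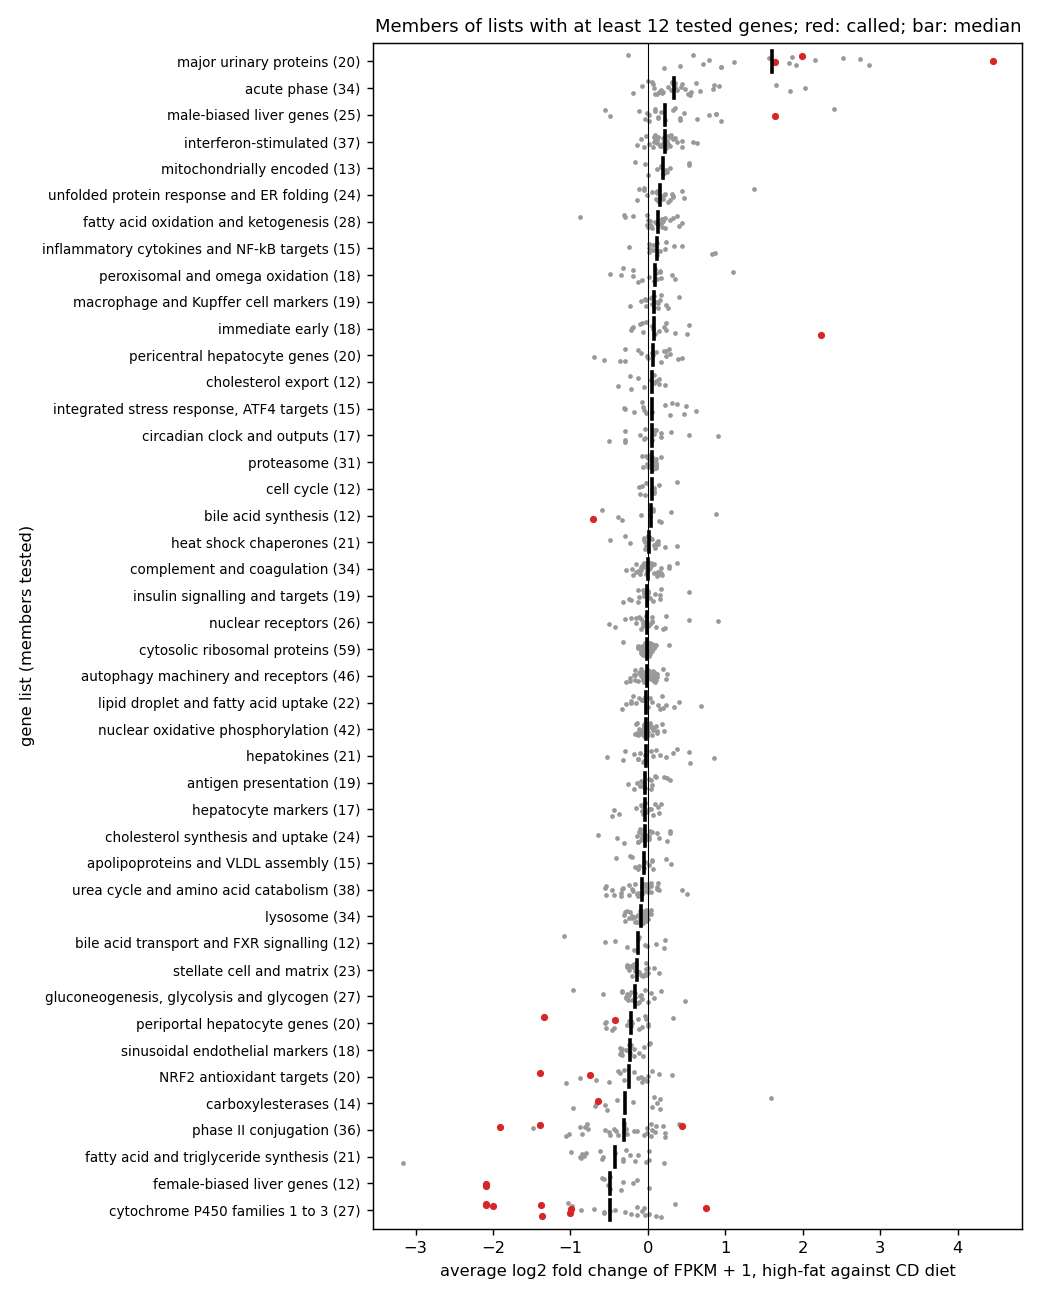
Each point is a tested gene at its average log2 fold change of FPKM + 1, in 1 of 44 lists with at least 12 tested members, red where called, with a bar at the median of the list. The Mup list lies farthest to the right, with a median of 1.60, and cytochrome P450 families 1 to 3 farthest to the left, with -0.49.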

How the data were processed

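RNA-seq libraries were made from total liver RNA with Qiagen RNeasy mini plus and SMARTer mRNA-seq kits, per the labels' protocols. The deposited values are FPKM per gene from the authors, 1 column per library; the build is mm10 per the submitters' processing notes. Aligner, counter and strand setting were not given in the sources used here. Unnamed empty columns (4) were not used. Multiplied by exon length (GENCODE vM21), 97.0 to 97.3% of values under 500 fragments lay within 0.02 of a whole number, which gave the depth.

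Values were analysed as log2(FPKM + 1), which understates changes of low genes. Folds are of FPKM + 1. One model with 4 group means was fitted to the 12 libraries with limma 3.58.1 in R 4.3.3 (variance trend, two-sided, Benjamini-Hochberg over 10806 genes, threshold 0.05), with 8 residual degrees of freedom. Single genes were also tested by exact permutation of diet labels within DSS state (400 assignments, smallest p 0.005, not adjusted over genes). The fit was tested on simulated data first. Gene lists are described by counts and medians, with no set test.

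Named are up to 12 called genes from each end of the ranking by log2 fold change, filled with uncalled genes of lowest p, up to 4 called members of each list, and 23 chosen genes; a few items are not reported here. The fill was Extl1, F11 and Capn8, with log2 fold changes of 0.48, 0.38 and 0.83 (adjusted p = 0.0502, 0.0502 and 0.0504). Another 11 called genes, other genes of the lists and the single-state calls were named after their values were seen. The members and lists were chosen with earlier results of these data known. Leaving out 3 libraries together was added after seeing the data.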

Additional observations from a re-analysis of the deposited data

Results flagged for a closer look

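Among the named genes, 122 sets of 6 libraries of a diet were examined for a library far from the other 5. In a uniform group, chance flags about 1 in 20 sets. Each set here joins libraries without and with DSS, so that rate need not hold, and a shift with DSS can hide a library. In 2 sets a library stood out. Cd36 was at 5.92 FPKM in CD_DSS 2, against 8.36 to 9.87 in the other CD libraries. Igfbp1 was at 379 FPKM in HFD 1, against 113 to 176 in the other high-fat libraries. HFD 1 is among the 3 libraries that stood apart on the first principal component. The diet effect on BC049987 differed between the DSS states by the test of the difference, by 1.66 on the log2 scale (limma adjusted p = 0.0227). That call did not hold when some single libraries were left out, as given above.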

How the results depend on the processing

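All 37 genes kept their sign under each alternative that tested them, except BC049987 in the untreated libraries alone (-0.0066). The number called (37; 10 higher and 27 lower) was 22 with no filter (5 and 17), 78 for genes averaging 5 FPKM or more (28 and 50), 12 with diet alone in the model (0 and 12), 263 with library weights (123 and 140), 9 against a minimum fold of 1.2 (5 and 4), 65 with voom on recovered fragments (21 and 44, all 37 among them), 6 in untreated libraries alone (2 and 4) and 4 in DSS libraries alone (3 and 1). Without the 3 libraries that stood apart it was 54 (12 and 42). Leaving out 1 library gave 17 (without CD 2) to 61 (without HFD_DSS 2), with 5 to 18 higher and 12 to 43 lower. Library weights ranged from 0.371 (HFD 1) to 3.39 (CD 2). The cause of these changes was not tested.

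For the diet effect without DSS (1 called), there were 6 with no filter, 2 at a mean of 5 FPKM, 0 with TPM scaling, 66 with weights, 2 without the 3 libraries and 0 to 3 leaving out 1. With DSS (11) there were 5, 21 and, with weights, 147, then 2 at a minimum fold of 1.2, 79 without the 3 libraries and 3 to 28 leaving out 1. For the difference (1) there were 0 with no filter, 0 at a minimum fold of 1.2, 0 without the 3 libraries and 0 to 2 leaving out 1.

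With the replicate block 23 genes were called in the average (8 higher and 15 lower), 3 without DSS and 6 with it. Same-numbered libraries did not deviate together (r from -0.356 to 0.258 over 18 pairs), and 2 of 12 libraries correlated best with their own number.

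Log2 fold changes of uncalled genes changed sign as follows. In untreated libraries alone they were 0.054 (Srebf1), -1.84 (Cyp7a1), -0.58 (Cyp8b1) and 0.010 (Tfeb), and in DSS libraries alone 0.24 (Pparg), 0.051 (Pck1), 0.43 (Igfbp1) and 0.050 (Atg7). Cidec had -0.010 without the 3 libraries, and Cyp8b1 -0.0096 with TPM and -0.0052 with quantile scaling. Leaving out 1 library gave -0.30 to 0.017 (Srebf1), -0.17 to 0.51 (Cyp7a1), -0.046 to 0.082 (Cyp8b1), -0.31 to 0.069 (Pck1), -0.45 to 0.24 (Igfbp1) and -0.30 to 0.78 (Hamp).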
